A study of Homo sapiens with 9 samples.

Results

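The 36 genes described here are enzymes and transporters of glycolysis and genes of the hypoxia response, with pyruvate kinase PKM left out. They were chosen by gene name, among 32449 genes listed in either of 2 deposited gene tables, and all 36 are in both tables. The RNA came from HCT-116 cells, a long-established line from a human colon tumour, as 9 libraries. In 3 of them, NC, the cells had a blank vector. In 3, ORF, they stably made the peptide-coding frame of LINC00266-1, a gene classed as long non-coding. In the 3 labelled MT (5'UTR-ORFmut) they stably carried the frame behind its 5′ UTR, with ATT in place of the start codon ATG. All 3 groups share the cell line and 1 medium with serum, and the labels name no culture in low oxygen. They do not say whether a line is 1 clone or a pool, or whether the 3 libraries of a group came from separate cultures, so every p-value measures only the spread between these libraries.

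Reads counted at LINC00266-1 numbered 9951, 10229 and 10310 in the ORF libraries, but 1 read in all NC libraries together and 1 in all libraries labelled MT. That goes against the label, so the group is called the libraries labelled MT throughout, and each direction given for it is that of libraries whose construct was not seen in the counts. Recovered reads per library ran from 19.5 to 24.4 M. PKM, the glycolytic enzyme outside the members, took 4.52% ± 0.95 of reads in ORF (mean ± SD, n = 3), 0.271% ± 0.007 in NC and 0.296% ± 0.042 in those labelled MT. Its log2 fold change was 4.23 ± 0.21 (SE) for ORF with NC (limma adjusted p = 2.8e-06) and 0.20 ± 0.19 for the libraries labelled MT with NC (adjusted p = 0.761). The 6 epithelial marker genes summed to between 67729 and 121547 normalized reads per library. KRT8 alone had 48999.5 to 94624.7 of these, while VIL1 had only 1 to 7 reads per library. The blood, endothelial, fibroblast and hepatocyte marker lists summed to at most 39.8. In bulk RNA, fewer cells with a transcript and less of it per cell cannot be told apart.

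Glycolysis splits glucose into pyruvate. Glucose transporters and hexokinases bring in and trap the sugar, phosphofructokinase commits it, aldolase cleaves it, and lactate dehydrogenase turns the pyruvate into lactate, which leaves through monocarboxylate transporters. In low oxygen the factor HIF1A escapes prolyl hydroxylation and degradation and switches on most of these genes, along with genes for angiogenesis, acid balance, mitophagy and growth control. Colon cancer cells are known to run glycolysis strongly even in air.

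HIF binds DNA at sites that hold the letters ACGTG, read as CACGT on the other strand, and both readings overlap in CACGTG. Windows around such letters are shown for some of the members named in the comparisons, chosen among those that hold the letters. The sequences are from RefSeq (GRCh38.p14), 5′ to 3′ along the gene, with the searched letters in capitals.
MIR210HG, chr11:568611-568639, minus strand: ctccccgggcagACGTGcagaaaagaacg
CA9, chr9:35673898-35673926, plus strand: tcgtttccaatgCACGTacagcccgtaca
ALDOC, chr17:28576907-28576935, minus strand: ccccggaggagtCACGTagctctgcgaca
ENO2, chr12:6914450-6914478, plus strand: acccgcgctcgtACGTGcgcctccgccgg
ANKRD37, chr4:185396668-185396696, plus strand: gcgccgggctccACGTGccagtgtttgtg
DDIT4, chr10:72273787-72273815, plus strand: agaacgttgcttACGTGcgcccggagtcc
ANGPTL4, chr19:8363909-8363937, plus strand: ggaaagaagagtCACGTctcccacggttc
SLC16A3, chr17:82228962-82228990, plus strand: cgccaggcggtgACGTGcgcgggggacgt
RefSeq promoters, each 250 bases before to 50 after a gene start, were found for 33 of the 36 members, 61 windows in all. ACGTG or CACGT was in 26 of them (42.6%), against 21.4% of all 35116 promoters. The related letters GCGTG or CACGC, which can overlap the first pair, were in 26 (42.6%), against 36.5% of all promoters. A match is a description of these letters and not a bound site. No ACGTG or CACGT was found in the windows of ADM, EGLN3, ENO1, HIF1A, HK1, KDM3A, LDHB, PFKFB4, PFKL, PGAM1 and SLC2A1. Of these, EGLN3 and PGAM1 also lack GCGTG and CACGC, and the others hold it in at least 1 window. SLC16A3 has ACGTG or CACGT in 1 of its 5 windows.

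The members differed widely in level. Per length, as reads per kb of the deposited gene length per M reads, GAPDH, the dehydrogenase of the middle of the pathway, stood highest, at 1249 ± 89.3 in NC (SD, n = 3). ENO1, the main enolase, followed at 733 ± 38.8, then TPI1, the triose phosphate isomerase, at 339.8 ± 18.7, PGAM1, the phosphoglycerate mutase, at 279 ± 19.7, and LDHA, the lactate dehydrogenase subunit that favours lactate, at 171 ± 2.43. At the other end was PDK1, a pyruvate dehydrogenase kinase, at 0.67 ± 0.14. Lowest was CA9, a surface carbonic anhydrase used as a marker of hypoxia, at 0.113 ± 0.0549. CA9 rested on 3 to 6 reads per NC library. Together the 36 genes took 1.51% ± 0.17 of reads in ORF, 1.44% ± 0.07 in NC and 1.58% ± 0.19 in those labelled MT, and these ranges overlap.

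**Figure D1:**
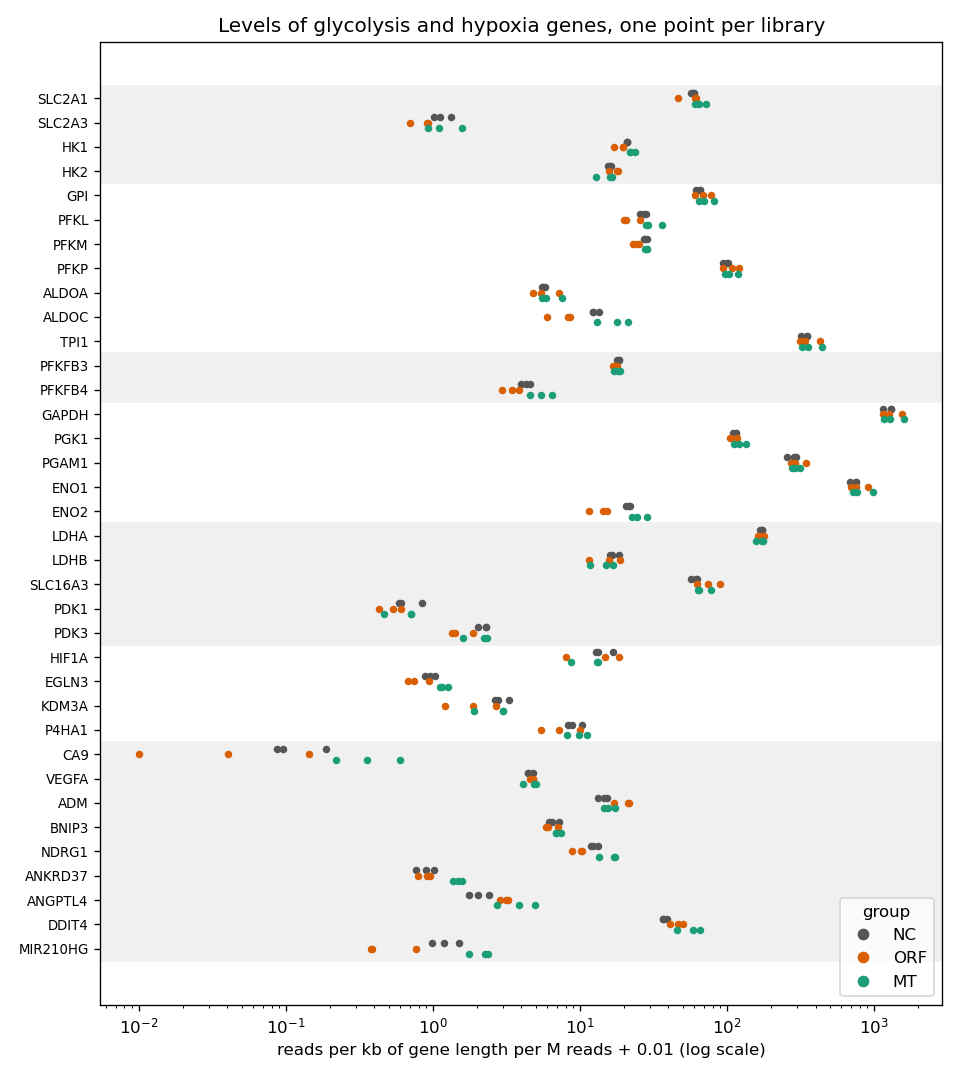
Level of each of the 36 genes in each of the 9 libraries (1 point per library, grey NC, orange ORF, green the libraries labelled MT), in reads per kb per M reads plus 0.01, on a log axis. Shaded bands separate the roles; GAPDH is highest and CA9 lowest, and for most genes the 3 groups overlap.

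Single libraries stood apart from the rest of their group. ORF replicate 1 and the library labelled MT replicate 2 deviated from their group means along the GC content of genes (r across genes 0.784 and 0.773, a description in which genes are not independent). ORF replicate 2 and the libraries labelled MT replicates 1 and 3 deviated the other way (r = -0.735, -0.618 and -0.692). Deviations within a group cancel for each gene, so opposite signs within a group follow in part from this measure. The members have a median GC content of 53.0%, against 48.8% of the genes tested. ORF replicate 1 was the highest ORF library in 26 of 36 members, and replicate 2 the highest of the libraries labelled MT also in 26. In upper glycolysis (7 of 7 genes) and lower glycolysis (5 of 5 genes) both held without exception. How often these libraries were highest over all genes was not counted, so these orders are not shown to be particular to the members. The median member lay 0.24 (log2) above its NC mean in ORF replicate 1 and 0.53 above it in the library labelled MT replicate 2, and between -0.02 and 0.12 in the other 4 libraries of both groups. NC was not free of such a split. NC replicate 2 deviated at r = 0.545 and NC replicate 3 at r = -0.568. NC replicate 3 was the lowest NC library in 21 of 36 members. Without it the member median was 0.07 in ORF with NC and 0.17 in the libraries labelled MT with NC. With all libraries these medians were 0.12 and 0.21. Results are therefore given with and without single libraries where that matters.

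**Figure D2:**
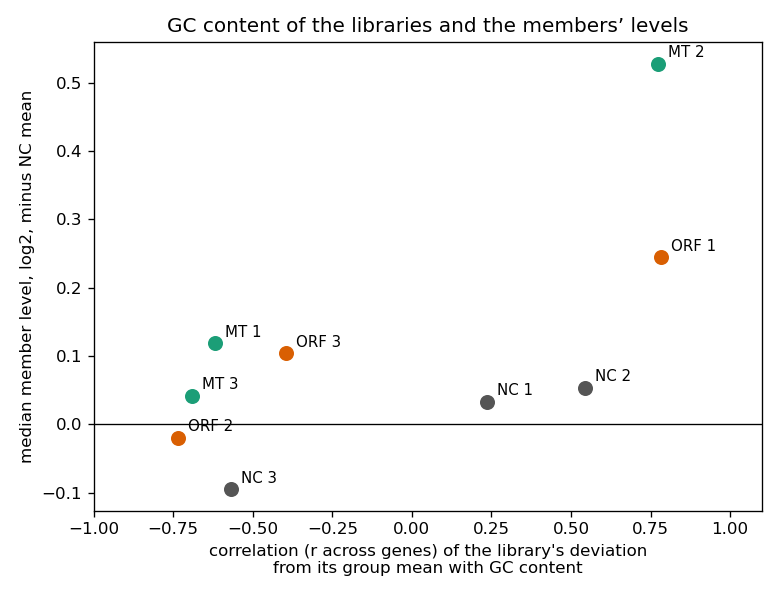
For each library, the correlation across genes of its deviation from its group mean with GC content (horizontal) and the median level of the 36 genes in log2, relative to the NC mean (vertical). ORF replicate 1 (0.784, 0.24) and the library labelled MT replicate 2 (0.773, 0.53) lie at the upper right.

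Values below are normalized reads, which are recovered whole reads divided by 1 size factor per library over all 9. Groups were compared with limma on log2(value + 1), and p-values were adjusted by Benjamini-Hochberg over all genes tested, with a threshold of 0.05. Fold changes are on that log2 scale, where a gene with few reads shows less than its full change. ORF with NC and the libraries labelled MT with NC were tested within their own deposited table and share the NC libraries, and their member fold changes differ by at most 0.0112 and 0.0176 (log2) from those on the common scale. The third comparison, of ORF and MT libraries, uses the same ones again, so the 3 comparisons are not independent.

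ORF with NC asks what goes with stable expression of the reading frame. The enzymes of the glycolytic chain that carry most of the reads did not pass the test, nor did any other of the 36 members, where 0.418% of 24662 genes did. The largest differences were those of MIR210HG (-1.12 ± 0.34), a hypoxia-induced non-coding RNA, CA9 (-0.92 ± 0.70), ANGPTL4 (0.77 ± 0.19), a secreted lipase inhibitor, and ADM (0.66 ± 0.17), a vasodilator peptide (log2 fold change ± SE, 3 libraries per group). The count of 0 became 4 without ORF replicate 1, where 3.57% of genes passed, and 5 without ORF replicate 2, where 6.42% did. At an unadjusted p below 0.05 there were 9 members (25.0%, against 15.7% of genes), 5 higher and 4 lower, where 8.06% of all genes were higher and 7.62% lower. By the count test edgeR, too, 0 of 35 members passed, where 0.618% of genes did, and 9 had an unadjusted p below 0.05, where 18.8% of genes did. Fold changes were above 0 in 22 members (61.1%, against 46.2% of all genes), and the median log2 fold change of the members was 0.12, against -0.04 over all genes, and it was -0.028 with quantile normalization and 0.04 without ORF replicate 1. Every ORF library lay above every NC library in 7 members (19.4%) and below in 5 (13.9%), where 11.5% and 10.1% of all genes did so. The members higher without overlap were HK2, LDHA, SLC16A3, VEGFA, ADM, ANGPTL4 and DDIT4, and those lower were ALDOC, ENO2, SLC2A3, PDK3 and MIR210HG. In reads per kb per M reads HK2, LDHA and VEGFA overlapped between ORF and NC, and the others named here did not.

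The libraries labelled MT were set against NC, a comparison in which the label gives the frame without its start codon. The largest differences were those of known HIF targets outside the glycolytic chain, with CA9 at 1.57 ± 0.48, ANGPTL4 at 0.95 ± 0.23, MIR210HG at 0.88 ± 0.22 and ANKRD37 at 0.81 ± 0.22 (log2 fold change ± SE). No gene of 25310 (0% called) and no member passed the limma test. At an unadjusted p below 0.05 were 1183 genes (4.67%) and 10 members (27.8%). All 10 (CA9, ANGPTL4, MIR210HG, ANKRD37, DDIT4, NDRG1, ALDOC, PFKFB4, EGLN3 and ENO2) were higher, where 2.32% of genes were higher and 2.35% lower at that p. With edgeR 0 genes passed and 9 members were higher at an unadjusted p below 0.05, where 2.43% of genes were, and with DESeq2 1 gene (0.00322%) passed, which is no member. The groups did not overlap in 12 members, all higher (33.3%, against 5.7% of all genes higher and 6.72% lower), and fold changes were above 0 in 31 (86.1%, against 51.5%). The median of the members was 0.21, against 0.01 over all genes, 0.09 without the library labelled MT replicate 2 and 0.33 without replicate 3. At an unadjusted p below 0.05, 8 members were higher without replicate 2 (1.76% of genes) and 15 without replicate 3 (6.03% of genes). Within the other hypoxia targets the median was 0.66 (9 members), and in upper and lower glycolysis it was 0.24 (7 members) and 0.19 (5 members). These role medians include the library labelled MT replicate 2. It was the highest of its group in 7 of 9, 7 of 7 and 5 of 5 of these members.

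ORF was then set against the libraries labelled MT on 1 common scale. MIR210HG was the 1 member of 36 that passed, and it was lower in ORF, where 0.365% of 24404 genes passed. Other large differences, also lower in ORF, were those of the low-level CA9 (-2.49 ± 0.68), ALDOC (-1.07 ± 0.24) and ENO2 (-0.78 ± 0.19), an aldolase and an enolase, which did not pass. With ORF replicate 1 left out 5 members passed, where 2.37% of genes did. With ORF replicate 2 or 3 left out 0 did, where 0.415% and 0.0517% of genes passed, and with the library labelled MT replicate 1, 2 or 3 left out 0 did, where 0.0842%, 0.185% and 0.0767% passed. At an unadjusted p below 0.05 were 10 members (27.8%, against 13.1%), of which 8 were lower (22.2%, against 7.28% of all genes) and 2 higher (5.56%, against 5.81%). Fold changes were above 0 in 14 members (38.9%, against 46.9%). Groups did not overlap in 8 lower members (22.2%, against 9.6%) and 3 higher members (8.33%, against 9.88%). The median of the members was -0.12, against -0.03 over all genes, and it was 0.02 without the library labelled MT replicate 2.

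**Figure D3:**
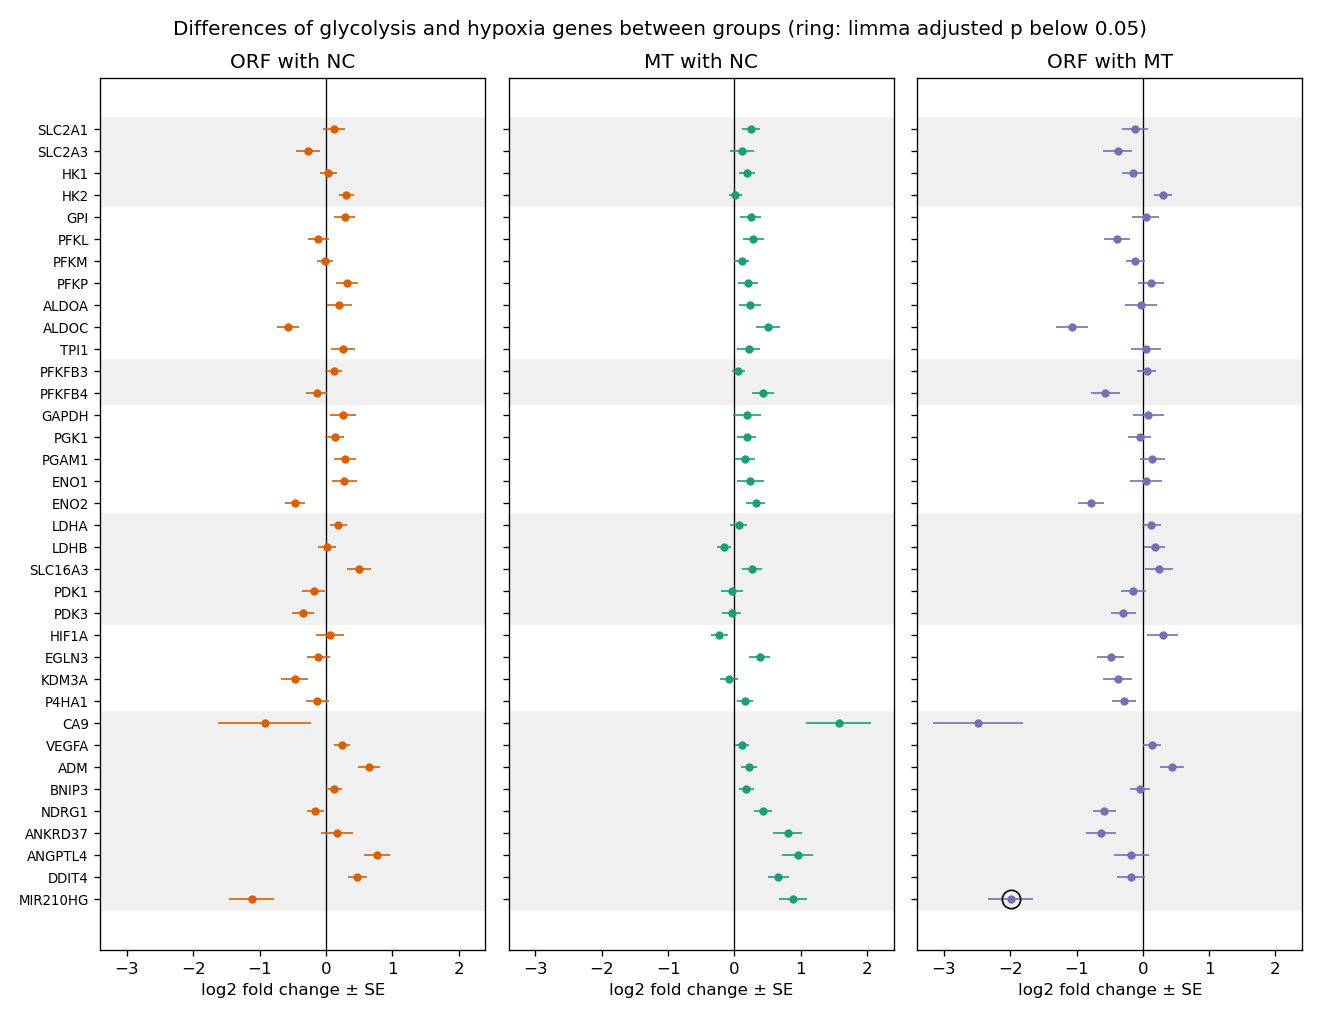
Log2 fold change ± SE of each of the 36 genes in the 3 comparisons (3 libraries per group), ordered by role. The ring marks MIR210HG, the member with a limma adjusted p below 0.05, in ORF with the libraries labelled MT.

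Glucose entry and trapping is covered by 4 members, of which 0 passed in any comparison. HK2, the inducible hexokinase bound to mitochondria, had 1957, 1948 and 1866 normalized reads in the NC libraries, 2377, 2311 and 2470.3 in the ORF libraries, and 1971, 1837 and 2001 in those labelled MT. All ORF libraries lay above all other 6 on this scale. In reads per kb per M reads they overlapped, with 15.7, 18.1 and 17.9 in ORF and 15.7, 15.6 and 16.1 in NC. The log2 fold change was 0.31 ± 0.11 against NC (SE, n = 3; limma adjusted p = 0.241), and 0.30 ± 0.13 against the libraries labelled MT (adjusted p = 0.365). The libraries labelled MT and NC overlapped, with a difference of 0.01 ± 0.10. SLC2A1, the main glucose transporter, had 5718, 5777 and 5154 normalized reads in the NC libraries, 7297, 4646 and 6545 in the ORF libraries, and 6200.4, 8056 and 5714 in those labelled MT. Its groups overlapped in every comparison, and the ORF libraries ranged from below to above all NC libraries. The SLC2A1 difference in ORF with NC was 0.12 ± 0.16, and -0.046 with quantile normalization. SLC2A3, a high-affinity glucose transporter of low level here, was lower in ORF than in both other groups without overlap, by -0.27 ± 0.18 against NC (adjusted p = 0.471). In reads per kb per M reads SLC2A3 reached 0.918 in ORF and fell to 0.913 in the libraries labelled MT, so these overlapped. HK1, the constitutive hexokinase, was higher in the libraries labelled MT than in NC without overlap (0.19 ± 0.12, adjusted p = 0.744).

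Upper glycolysis, from glucose phosphate to triose phosphates, has 7 members, and again 0 passed. ALDOC (ENSG00000109107, chromosome 17, 28573115 to 28577264, minus strand), the aldolase best known from brain and induced by hypoxia, had 738, 744 and 754 normalized reads in the NC libraries, 606, 529.8 and 394 in the ORF libraries, and 1055, 1459 and 764 in those labelled MT. The 3 groups were fully separate, with ORF lowest and the libraries labelled MT highest. Its log2 fold change was -0.57 ± 0.16 for ORF with NC (limma adjusted p = 0.152), 0.51 ± 0.18 for the libraries labelled MT with NC (adjusted p = 0.744) and -1.07 ± 0.24 for ORF with the libraries labelled MT (adjusted p = 0.0933). DESeq2, which called 1.57% of genes, and the limma fit over all 9 libraries, which called 1.73%, called the last of these. Without the library labelled MT replicate 2, the ALDOC difference in the libraries labelled MT with NC was 0.27. For the other 6 members, GPI (glucose phosphate isomerase), the phosphofructokinases PFKL, PFKM and PFKP, the aldolase ALDOA and TPI1, log2 fold changes ran from -0.11 to 0.32 in ORF with NC and from 0.11 to 0.29 in the libraries labelled MT with NC. All 6 overlapped between groups in each comparison. ALDOA is uncertain: 42.3% of its exonic bases in GENCODE 29 also belong to the gene AC093512.2 on the same strand. How such reads were counted is not stated. The ALDOA gene count was 447, 533 and 447 reads in NC. A single cassette exon event of ALDOA held 2108, 2670 and 1962 reads of the included form in the NC libraries. The gene count thus leaves out many ALDOA reads, and its level and fold changes rest on those counted.

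PFKFB3 and PFKFB4 make and remove fructose 2,6-bisphosphate, the strongest activator of phosphofructokinase. PFKFB4, known as a hypoxia target, had 539.7, 498 and 528 normalized reads in the NC libraries, 587, 443 and 409 in the ORF libraries, and 669.6, 934 and 551 in those labelled MT. The libraries labelled MT all lay above NC (0.43 ± 0.16, limma adjusted p = 0.744), while ORF overlapped both other groups. Against the libraries labelled MT the ORF difference was -0.56 ± 0.21 (adjusted p = 0.287). Without the library labelled MT replicate 2, PFKFB4 differed by 0.22 in the libraries labelled MT with NC and by -0.36 in ORF with them. PFKFB3 differed by 0.11 ± 0.13 in ORF with NC and by 0.06 ± 0.11 in the libraries labelled MT with NC, and its groups overlapped.

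Lower glycolysis, from triose phosphate to phosphoenolpyruvate, has 5 members, of which 0 passed. GAPDH had 79355, 80199 and 65074 normalized reads in the NC libraries, 115457, 72648 and 85911 in the ORF libraries, and 78018, 111885 and 69398 in those labelled MT. Its groups overlapped, and ORF replicate 1 and the library labelled MT replicate 2 stood above the other 7 libraries. The GAPDH difference was 0.26 ± 0.19 in ORF with NC (adjusted p = 0.526) and, with quantile normalization, -0.13. PGK1 (phosphoglycerate kinase), PGAM1 and ENO1 likewise overlapped, with differences from 0.13 to 0.29 in ORF with NC. ENO2 (ENSG00000111674, chromosome 12, 6913745 to 6923698, plus strand), the neuron-type enolase that hypoxia also induces, went the other way. It had 1925, 1831 and 1751 normalized reads in the NC libraries, 1629, 1289 and 1118 in the ORF libraries, and 2115, 2904 and 1933 in those labelled MT. Every ORF library was below every other library, and every library labelled MT was above every NC library. The difference was -0.47 ± 0.15 in ORF with NC (adjusted p = 0.184), 0.32 ± 0.14 in the libraries labelled MT with NC (adjusted p = 0.744) and -0.78 ± 0.19 in ORF with the libraries labelled MT (adjusted p = 0.125). DESeq2, the fit over all 9 libraries and quantile normalization, which called 0.549% of genes, called the last one. Without the library labelled MT replicate 2, the ENO2 difference in the libraries labelled MT with NC was 0.14.

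The fate of pyruvate and lactate is covered by 5 members, of which 0 passed. SLC16A3, the exporter of lactate also called MCT4, had 11483, 11471 and 9750.1 normalized reads in the NC libraries, 20274, 11894 and 15228 in the ORF libraries, and 11564, 16602 and 11499 in those labelled MT. ORF lay above NC without overlap, by 0.50 ± 0.18 (limma adjusted p = 0.233), and the margin was widest in ORF replicate 1. Without ORF replicate 1 the difference was 0.31 (adjusted p = 0.196), and with GC content and length adjusted it was 0.52 (adjusted p = 0.00995). LDHA had 21925, 22157 and 19914 normalized reads in the NC libraries, 25338, 23486 and 24031 in the ORF libraries, and 21841, 22970.5 and 21808 in those labelled MT. ORF lay above both other groups without overlap, by 0.18 ± 0.13 against NC (adjusted p = 0.502) and by 0.13 ± 0.15 against the libraries labelled MT (adjusted p = 0.77). With quantile normalization these became -0.023 and -0.0021. In reads per kb per M reads LDHA in ORF (163, 179 and 170) overlapped NC (172, 173 and 168). PDK3, a pyruvate dehydrogenase kinase, was lower in ORF than in NC without overlap (-0.35 ± 0.17, adjusted p = 0.341). PDK1 and LDHB, the subunit of lactate dehydrogenase that favours pyruvate, overlapped throughout, and LDHB shares 33.4% of its exonic bases with AC010197.2 on the same strand.

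The oxygen-sensing side has 4 members, of which 0 passed. HIF1A, the oxygen-labile subunit of the hypoxia factor, had 1413, 1357 and 1649 normalized reads in the NC libraries, 1036, 2015 and 1739 in the ORF libraries, and 1359, 1063 and 1356 in those labelled MT. ORF replicate 1 was the lowest of all libraries and ORF replicates 2 and 3 the highest, so the ORF mean hides a wide spread. The HIF1A difference was 0.06 ± 0.21 in ORF with NC (adjusted p = 0.907) and 0.30 ± 0.23 in ORF with the libraries labelled MT (adjusted p = 0.628). Without ORF replicate 1 the former was 0.35, and without ORF replicate 2 it was -0.13. Without ORF replicate 1 and the library labelled MT replicate 2, an alternative chosen after seeing the data, 8 members passed (7.01% of genes), HIF1A among them at 0.46 (adjusted p = 0.0105). HIF1A is mainly controlled as a protein, which was not measured here. EGLN3, a prolyl hydroxylase that marks HIF for degradation and is itself a HIF target, was higher in the libraries labelled MT without overlap, by 0.38 ± 0.16 against NC (adjusted p = 0.744). Against the libraries labelled MT, EGLN3 in ORF was lower without overlap (-0.48 ± 0.20, adjusted p = 0.338). KDM3A, a histone demethylase, differed by -0.47 ± 0.20 in ORF with NC (adjusted p = 0.293), with overlap. P4HA1, a collagen prolyl hydroxylase, differed by -0.13 ± 0.17, also with overlap.

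The other 9 members are known HIF targets of varied function, and among them 1 passed. MIR210HG (ENSG00000247095, chromosome 11, 565660 to 568457, minus strand) is the transcript that hosts the hypoxia-induced microRNA miR-210. It had 56.4, 46.7 and 65.8 normalized reads in the NC libraries, 43.7, 18.4 and 19.6 in the ORF libraries, and 105, 129 and 81.1 in those labelled MT. The 3 groups were fully separate, in the same order as ALDOC, with ORF lowest and the libraries labelled MT highest. MIR210HG fell in ORF against the libraries labelled MT, with a log2 fold change of -2.00 ± 0.34 (3.99 times lower, limma adjusted p = 0.0371). Against NC it was -1.12 ± 0.34 in ORF (adjusted p = 0.167) and 0.88 ± 0.22 in the libraries labelled MT (adjusted p = 0.744). The call held in 14 of 19 alternatives, edgeR (0.488% of genes called) among them. It was lost without ORF replicate 2 (adjusted p = 0.0615), without ORF replicate 3 (0.246) and without the library labelled MT replicate 1, 2 or 3 (0.195, 0.127 and 0.131), while its fold change stayed between -2.38 and -1.78.

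CA9 (ENSG00000107159, chromosome 9, 35673856 to 35681159, plus strand) had 6.04, 2.65 and 2.74 normalized reads in the NC libraries, 5.6, 1.08 and 0 in the ORF libraries, and 19.9, 13.5 and 6.98 in those labelled MT. No ORF library reached the lowest library labelled MT, but these are few reads, 6, 3 and 3 in NC, 5, 1 and 0 in ORF and 20, 14 and 8 in the libraries labelled MT. The difference was -2.49 ± 0.68 in ORF with the libraries labelled MT (limma adjusted p = 0.156) and 1.57 ± 0.48 in the libraries labelled MT with NC (adjusted p = 0.744). With a pseudocount of 4 the former was -1.52. CA9 also shares 38.5% of its exonic bases with ARHGEF39 on the opposite strand, and no source used here states the strand setting of the counting.

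NDRG1, a stress-induced growth suppressor, had 2405, 2469.8 and 2469.8 normalized reads in the NC libraries, 2489, 2146 and 1978 in the ORF libraries, and 3429.5, 3924 and 2637 in those labelled MT. The libraries labelled MT were all above the other 6, by 0.43 ± 0.14 against NC (limma adjusted p = 0.744), and ORF against them differed by -0.58 ± 0.17 (adjusted p = 0.181). ANKRD37, a small ankyrin-repeat gene, had 47.3, 53.8 and 37.5 normalized reads in the NC libraries, 50.4, 48.8 and 55.3 in the ORF libraries, and 77.6, 95.8 and 69.8 in those labelled MT. Again the libraries labelled MT were above all others, by 0.81 ± 0.22 against NC (adjusted p = 0.744), while ORF overlapped NC (0.16 ± 0.24). ANKRD37 shares 35.2% of its exonic bases with UFSP2 on the opposite strand.

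ANGPTL4 (ENSG00000167772, chromosome 19, 8363289 to 8374373, plus strand), a secreted inhibitor of lipoprotein lipase, had 88.6, 104 and 113 normalized reads in the NC libraries, 202, 148 and 176 in the ORF libraries, and 194, 291 and 134 in those labelled MT. Both other groups lay above NC without overlap, by 0.77 ± 0.19 in ORF (1.71-fold, limma adjusted p = 0.112) and 0.95 ± 0.23 in the libraries labelled MT (adjusted p = 0.744). DDIT4, an inhibitor of mTORC1 also called REDD1, had 1552, 1652 and 1437 normalized reads in the NC libraries, 2584, 1787 and 2163 in the ORF libraries, and 2437, 3175 and 1873 in those labelled MT. It too was above NC in every other library, by 0.48 ± 0.15 in ORF (adjusted p = 0.178) and 0.66 ± 0.16 in the libraries labelled MT (adjusted p = 0.744). DDIT4 shares 41.2% of its exonic bases with DDIT4-AS1 on the opposite strand. Between ORF and the libraries labelled MT, ANGPTL4 and DDIT4 overlapped (-0.17 ± 0.26 and -0.18 ± 0.20), and without the library labelled MT replicate 2 these differences were 0.11 and 0.011.

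ADM (ENSG00000148926, chromosome 11, 10304680 to 10307397, plus strand), which encodes the vasodilator peptide adrenomedullin, had 807, 859 and 688 normalized reads in the NC libraries, 1467, 976 and 1312 in the ORF libraries, and 959, 989 and 786 in those labelled MT. ORF lay above NC without overlap, by 0.66 ± 0.17 (1.58-fold, limma adjusted p = 0.118), and overlapped the libraries labelled MT (0.44 ± 0.18, adjusted p = 0.319). In the authors' deposited table, ADM and ANGPTL4 are the members with an adjusted p below 0.05 in ORF with NC, 2 of 36 where 1.8% of genes have one. DESeq2 on the recovered reads called the same 2. VEGFA, the angiogenic growth factor, lay above both other groups in ORF without overlap, by 0.24 ± 0.13 against NC (adjusted p = 0.374). In reads per kb per M reads VEGFA overlapped, with 4.60, 4.76 and 4.80 in ORF and 4.43, 4.80 and 4.41 in NC. BNIP3, a mitophagy receptor, overlapped throughout and differed by 0.12 ± 0.13 in ORF with NC.

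**Figure D4:**
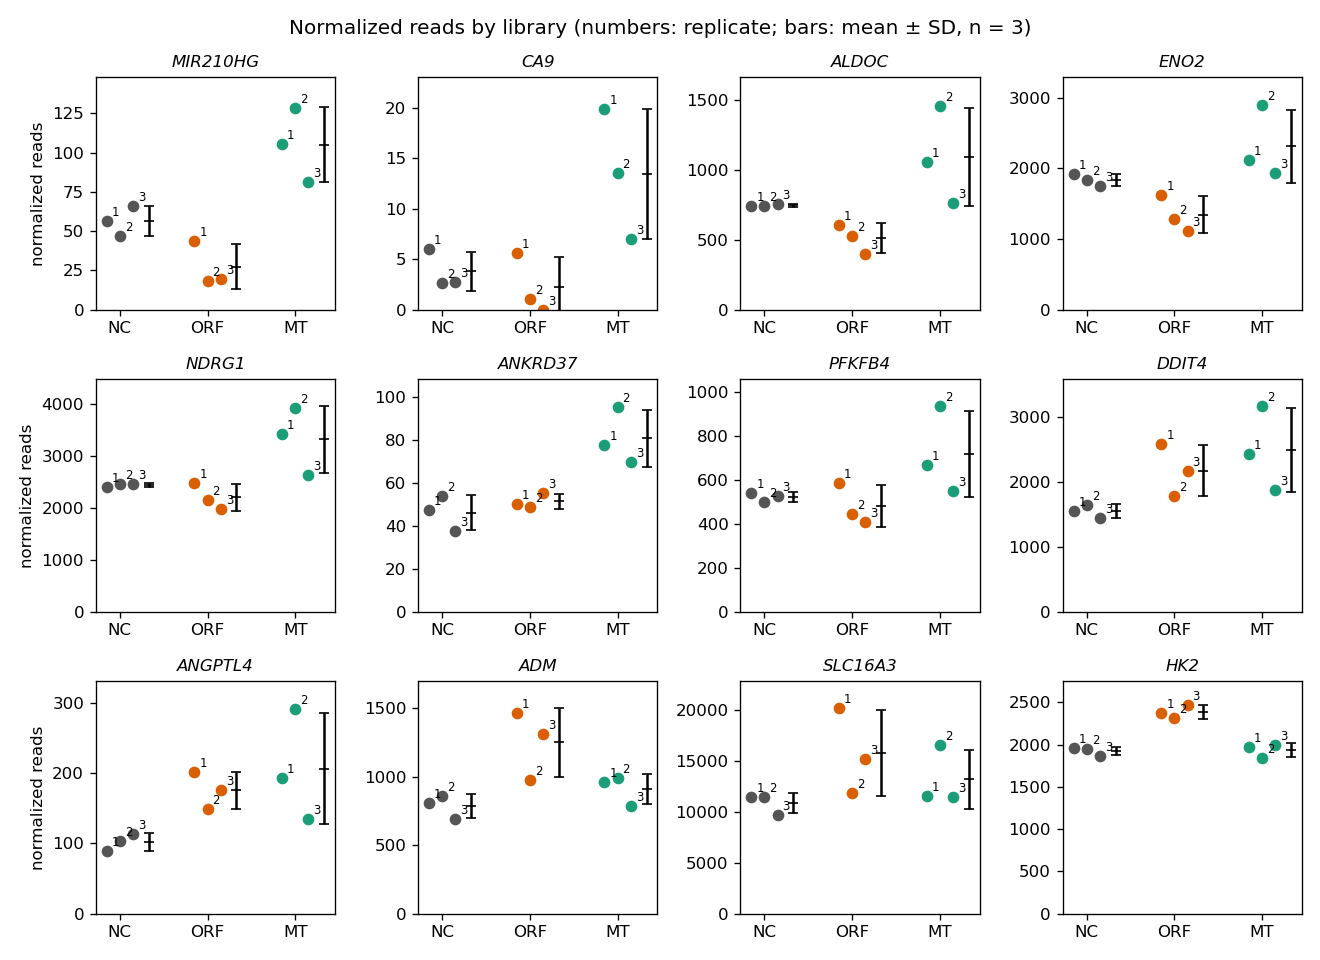
Normalized reads of 12 members in each library (points, numbered by replicate) with mean ± SD (bars, n = 3), from 0 on each axis, where a bar that would pass below 0 ends there. MIR210HG, ALDOC and ENO2 run ORF, NC, MT from low to high without overlap, DDIT4 and ANGPTL4 are above NC in both other groups, and HK2 is above in ORF.

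The number of members that passed changed with a GC and length adjustment and with single libraries left out. With each library adjusted for the GC content and length of genes, 8 members passed in ORF with NC, 5 higher (VEGFA, SLC16A3, ADM, ANGPTL4 and DDIT4) and 3 lower (ALDOC, ENO2 and MIR210HG), where 7.86% of all genes passed. In ORF with the libraries labelled MT 8 passed, 6 lower (NDRG1, CA9, ALDOC, ENO2, PFKFB4 and MIR210HG) and 2 higher (SLC16A3 and ADM), where 7.35% of genes did. With the same adjustment 0 passed in the libraries labelled MT with NC, and 11 members were higher at an unadjusted p below 0.05, where 2.16% of genes were. Without ORF replicate 1, 4 members passed in ORF with NC (ADM higher, ALDOC, ENO2 and MIR210HG lower, with 3.57% of genes), and without ORF replicate 2 there were 5 (SLC16A3, ADM, ANGPTL4 and DDIT4 higher, KDM3A lower, with 6.42% of genes). Without ORF replicate 1, 5 passed in ORF with the libraries labelled MT, all lower (NDRG1, CA9, ALDOC, ENO2 and MIR210HG, with 2.37% of genes). The part of GC content in the unadjusted values was not tested.

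Other genes of both pathways, from lists of 38 and 40 names, were read in the same tests. Of the 38 other glycolysis genes 33, 32 and 35 could be tested in ORF with NC, the libraries labelled MT with NC and ORF with the libraries labelled MT, and 0 passed in each. The smallest unadjusted p in ORF with NC were those of LDHC, PFKFB1 (1.06 ± 0.32) and ENO3 (0.50 ± 0.17), with limma adjusted p = 0.106, 0.167 and 0.221. LDHC rests on 0, 1 and 0 reads in NC, 4, 6 and 4 in ORF and 1, 1 and 1 in those labelled MT, too few for a fold. PFKFB1 rests on 10, 12 and 10 reads in NC and 19, 23 and 17 in ORF. For the libraries labelled MT with NC they included those of LDHD (0.52 ± 0.21) and PGM2 (-0.32 ± 0.13), both with an adjusted p of 0.744. In ORF with the libraries labelled MT they were those of SLC2A5 (2.04 ± 0.49), SLC2A12 (-1.30 ± 0.36) and again LDHC, with adjusted p = 0.115, 0.159 and 0.197. SLC2A5 rests on 17, 8 and 14 reads in ORF and 2, 5 and 2 in those labelled MT.

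Among the 40 other hypoxia genes, ARRDC3, an arrestin-domain gene, passed in ORF with NC. It had 339, 296 and 376 normalized reads in the NC libraries, 585, 978 and 1154 in the ORF libraries, and 367, 260.2 and 318 in those labelled MT. It rose in ORF by 1.37 ± 0.22 against NC (limma adjusted p = 0.0236) and by 1.48 ± 0.24 against the libraries labelled MT (adjusted p = 0.029). PPFIA4, a liprin gene, had 137, 164 and 189 normalized reads in the NC libraries, 80.7, 101 and 74.9 in the ORF libraries, and 213, 183 and 174 in those labelled MT, and fell by 1.15 on the log2 scale in ORF against the libraries labelled MT (SE 0.20, adjusted p = 0.0433). These 3 calls do not stand without single libraries: ARRDC3 in ORF with NC lost its call without any 1 NC library or ORF replicate 3 (adjusted p from 0.109 to 0.187), and ARRDC3 and PPFIA4 in ORF with the libraries labelled MT lost theirs without ORF replicate 3 or any 1 library labelled MT (0.0874 to 0.297), ARRDC3 also without ORF replicate 2 (0.0585). Of 39 tested in the libraries labelled MT with NC 0 passed, and the smallest unadjusted p were those of RORA (-1.30 ± 0.57), PLOD1 (0.29 ± 0.14) and LOXL2 (0.26 ± 0.13), where RORA rests on 1 to 18 reads per library. There 0 were higher and 1 lower at an unadjusted p below 0.05, where 2.32% and 2.35% of all genes were. The median of the other hypoxia genes there was 0.08, against 0.01 over all genes. In ORF with NC 5 of 40 were higher and 9 lower at that p, where 8.06% and 7.62% of all genes were. In ORF with the libraries labelled MT 4 of 39 were higher and 7 lower, where 5.81% and 7.28% of all genes were.

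Splicing of the members was read from the deposited counts of reads for 2 forms of each event. The inclusion level is the share of the form that the authors count as inclusion, after scaling by length, from 0 to 1. For a cassette exon that is the form with the exon. For an exclusive pair of exons, 28 of the 44 member events in ORF with NC, it is the form with 1 of them. Whether the exons of such a pair exclude each other in the RNA was not tested. A pair of GAPDH held 21640, 13602 and 15209 reads of the first form in ORF, and 19013, 11922 and 14932 of the other. The levels of such pairs may thus not reflect a choice of form. Events were tested with limma on the log2 odds of inclusion, and called at an adjusted p below 0.05 with a level difference of at least 0.05. In ORF with NC 44 events in 18 member genes could be tested and 0 were called, where 0.0643% of 23322 events were. In the libraries labelled MT with NC 36 events in 18 genes could be tested and 0 were called, where 0.00902% of 22171 events were. At an unadjusted p below 0.05 there were 0 member events in both, where 8.37% and 4.99% of all events were. By the authors' deposited adjusted p below 0.05, with the same level difference of at least 0.05, 0 of the 44 passed in ORF with NC. Of all these events 11.4% did.

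The member events with the smallest p in ORF with NC lay mostly in VEGFA. They concern mainly an exon of 132 bases that encodes the heparin-binding part of the longer secreted isoforms, and its inclusion is seen in the junctions. In the sequences (GENCODE 29, GRCh38, plus strand) the lower-case letters end the upstream exon, and the capitals begin the exon that is joined to it.
VEGFA, exon of 132 bases (chr6:43781956-43782087) included: aagacaagaaaaTCCCTGTGGGCC
VEGFA, exon of 132 bases left out, next exon (chr6:43784541-43784562) joined: aagacaagaaaaATGTGACAAGCC
The inclusion level was 0.369, 0.334 and 0.316 in ORF, 0.382, 0.413 and 0.421 in NC and 0.434, 0.421 and 0.478 in those labelled MT, and the libraries within a cell of this table carry no replicate number. ORF lay below NC without overlap, and every library labelled MT was above the NC median, overlapping NC. The difference in ORF with NC had an adjusted p of 0.761 (limma, unadjusted 0.28), on 60 to 81 reads of the included form per library. A shorter form of that exon, 97 bases long, had levels of 0.139, 0.144 and 0.165 in NC and 0.101, 0.0806 and 0.123 in ORF (adjusted p = 0.695). The other 2 were an exclusive pair in VEGFA (0.635, 0.644 and 0.733 in NC, 0.679, 0.691 and 0.787 in ORF) and one in SLC2A1 (0.527, 0.505 and 0.542 in NC, 0.563, 0.534 and 0.556 in ORF).

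The smallest p in the libraries labelled MT with NC was that of an exon of ANKRD37, at 0.417, 0.89 and 1 in NC and 1, 1 and 0.956 in the libraries labelled MT. It rests on 16, 31 and 14 reads of both forms in NC, and 1 NC library sets most of the difference. Its limma adjusted p was 0.934, and the authors' deposited table gives 0.0108. It is the 1 member event below 0.05 there with a level difference of at least 0.05, where 8.15% of tested events are. An exon of PFKFB4 followed, at 0.914, 0.942 and 0.954 in NC and 1, 0.903 and 1 in those labelled MT. An exon of GAPDH had 1, 1 and 0.553 in NC and 1, 1 and 1 in those labelled MT, so that again 1 NC library stood apart. An exon of 54 bases of VEGFA had 0.0626, 0.0439 and 0.165 in NC and 0.0706, 0.051 and 0 in those labelled MT. The groups overlapped in all 3, with adjusted p = 0.948, 0.95 and 0.95.

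The events in this paragraph were chosen after their values were seen, to show genes that control or carry glycolysis. HIF1A had 2 that could be tested. At the first the acceptor can lie 3 bases further on, as the junctions show (GENCODE 29, GRCh38, plus strand, capitals begin the exon at chr14:61720379-61720572 or chr14:61720382-61720572).
HIF1A, longer exon: cgacaagaaaaaTAGGATAAGTTC
HIF1A, shorter exon: cgacaagaaaaaGATAAGTTCTGA
The longer form had levels of 0.362, 0.259 and 0.379 in ORF, 0.311, 0.315 and 0.332 in NC and 0.314, 0.337 and 0.254 in those labelled MT, which overlap (adjusted p = 0.96 and 0.988). An exon of 127 bases of HIF1A was included at 0.914, 0.931 and 0.99 in ORF, 0.961, 0.959 and 0.941 in NC and 0.972, 0.903 and 0.937 in those labelled MT. The exon of 174 bases of PFKFB3 was included at 0.924, 0.869 and 0.936 in NC and 0.899, 0.935 and 0.931 in ORF. The exon of 52 bases of ALDOA was at 0.384, 0.4 and 0.377 in NC and 0.361, 0.379 and 0.376 in ORF, and that of 93 bases of PFKM at 0.861, 0.85 and 0.863 in NC and 0.85, 0.854 and 0.813 in ORF. All of these overlap between the groups. The exclusive pair of 71-base exons of P4HA1 had levels of 0.463, 0.303 and 0.307 in NC and 0.128, 0.178 and 0.615 in ORF, and the 3 ORF libraries spread from below to above NC.

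**Figure D5:**
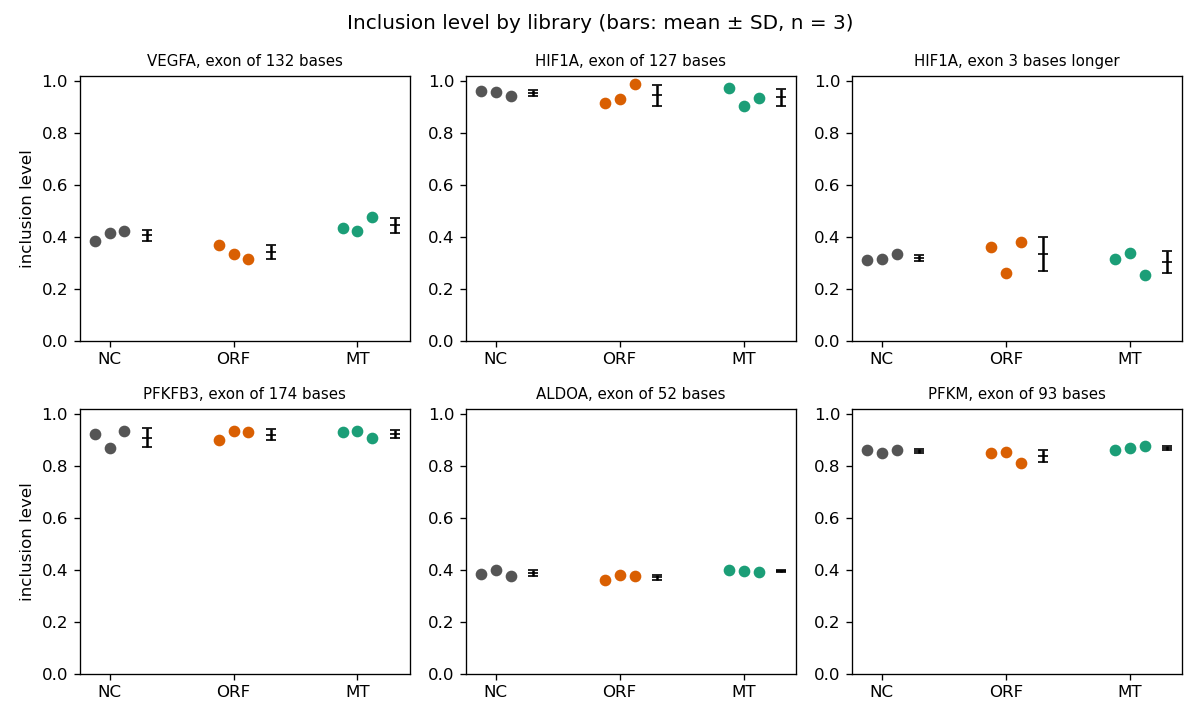
Inclusion level of 6 events in member genes, 1 point per library in the order of the deposited cell (which carries no replicate number) with mean ± SD (bars, n = 3), on an axis from 0 to 1. The VEGFA exon of 132 bases is lower in ORF than in NC without overlap; the other 5 overlap between ORF and NC.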

How the data were processed

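Total RNA of 9 HCT-116 libraries, 3 per group, was sequenced. Builds GRCh38 and hg38 are named per the submitters' processing notes. The aligner, counter, strand setting and software tests are not named in any source used here. In 2 deposited gene tables the authors gave a signal, read counts per gene divided by 1 size factor per library, with the authors' log2 fold change and p-value. All values (100%) are whole reads within 0.1 once multiplied by the factor. In 10 splicing tables the deposited cells hold reads of 2 forms of 5 event types, with an inclusion level difference (a score of the authors) and p-values. Of the events, 99.99% and 100.0% could be read in the ORF and MT tables.

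Genes at 1 or more in 3 libraries were tested with limma 3.58.1 (R 4.3.3) on log2(value + 1), with trend and Benjamini-Hochberg adjustment. For ORF with the libraries labelled MT, recovered reads of both tables, whose NC reads are identical in the 29612 shared genes, were scaled together (median of ratios, 9 libraries). Events with a mean of 20 reads and a level between 0.05 and 0.95 were tested on the log2 odds with a pseudocount of 0.5. edgeR 4.0.16 and DESeq2 1.42.0 were run on recovered reads as alternatives, besides other pseudocounts, filters, scalings, a GC and length adjustment, a replicate block and left-out libraries. Scripts were tested on simulated data. Gene values of every library are given for members with an adjusted p below 0.05, the 8 with the smallest p in each comparison, and HIF1A, HK2, SLC2A1, LDHA, GAPDH and CA9. Members and lists were chosen with earlier results of these data known. Exons are those of GENCODE 29. RefSeq promoters were matched by symbol. Results of 2 genes of the other pathway lists are not reported here.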

Additional observations from a re-analysis of the deposited data

Results flagged for a closer look

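The log2 fold change of MIR210HG, host of the hypoxia-induced miR-210, in ORF with the libraries labelled MT was -2.00. It is listed because ORF and the libraries labelled MT moved away from NC in opposite directions (-1.12 and 0.88), and the difference between them was itself tested (limma adjusted p = 0.0371, n = 3 libraries per group). All 3 ORF libraries lay below and all 3 libraries labelled MT above every NC library. LINC00266-1 reads were at 1 in the libraries labelled MT as in NC.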

How the results depend on the processing

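Depth was 19.5 to 24.4 M reads, and CA9, at 0 to 20 reads, was limited by it. Of the 48 log2 fold changes of the 16 members followed singly, 12 changed sign under at least 1 alternative, in ANGPTL4, DDIT4, GAPDH, HIF1A, HK2, LDHA and SLC2A1, with GAPDH from -0.13 to 0.41 and HIF1A from -0.13 to 0.35 in ORF with NC. In ORF with NC, genes called were 103, and 210 with quantile normalization, 225 with all 9 libraries in the fit, 558 with DESeq2 and 1937 with the GC and length adjustment. Members called were 2 with DESeq2 and 8 with that adjustment, and the member median was -0.028 with quantile normalization. In the libraries labelled MT with NC, DESeq2 called 1 gene. In ORF with the libraries labelled MT, genes called were 89, and 134 with quantile normalization, 458 with all 9 libraries, 453 with DESeq2 and 1794 with the GC and length adjustment. Members called there were 2, 3, 3 and 8 in the same order. Without ORF replicate 1 and the library labelled MT replicate 2, chosen after seeing the data, they were 8, with 1577 genes. Leaving out single libraries gave 24 to 1494 genes and 0 to 5 members in ORF with NC, 12 to 552 genes and 0 to 5 members in ORF with the libraries labelled MT, and 0 in the libraries labelled MT with NC. The ORF with NC calls were 93 higher and 10 lower, and 429 and 411 without ORF replicate 1. With single libraries left out the member median ran from 0.04 to 0.15 in ORF with NC, from 0.09 to 0.33 in the libraries labelled MT with NC and from -0.16 to 0.02 in ORF with the libraries labelled MT. The cause of these shifts was not tested.

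Whether the replicate numbers pair the libraries was not settled. Deviations from group means of same-numbered libraries correlated from -0.78 to 0.63 across genes. In the libraries labelled MT with NC they correlated at -0.26, 0.63 and 0.59 for replicates 1, 2 and 3. Such deviations also follow GC content, so these correlations cannot decide it. With a replicate block, genes called were 301 of 24662 in ORF with NC, with 0 members. In the libraries labelled MT with NC they were 35 of 25310, with 5 members. In ORF with the libraries labelled MT they were 46 of 24404, with 1 member. With the block and the GC and length adjustment they were 2355 of 24651 (7 members), 55 of 25300 (5 members) and 851 of 24394 (7 members). PPFIA4 lost its call with the block. No paired analysis was possible for splicing because the libraries in a cell of those tables carry no replicate number.

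Events called in ORF with NC were 15, and 9 with a pseudocount of 1, 9 with a mean of 10 reads, 39 with a mean of 50 reads, 69 with a variance trend on reads of the rarer form (chosen after seeing the data), 2663 by the authors' deposited adjusted p, and 1 to 7 with a library left out. In the libraries labelled MT with NC they were 2, and 4 with a mean of 50 reads, 1808 by the authors' deposited adjusted p (1 in a member) and 0 to 5 with a library left out. Each count by the authors' deposited adjusted p also required a level difference of at least 0.05.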

Other observations

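The make-up of enzyme families gave values with no test. They are shares of a family's level per length, so a change of all its genes in 1 library cancels. PFKP, the platelet-type phosphofructokinase, made up 64.2% ± 0.488 of the 3 phosphofructokinases in NC (SD, n = 3), 69.9% ± 2.33 in ORF, and 64.2% ± 0.944 in the group labelled MT. Every ORF library lay above every other library. PFKL, the liver type, was at 17.6% ± 0.253, 14.3% ± 0.932 and 18.7% ± 0.948, with every ORF library below the others. HK2 made up 43.1% ± 0.426 of HK1 and HK2 in NC, 47.9% ± 3.48 in ORF, and 40.2% ± 4.23 in those labelled MT, again with ORF above all others.

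ENO2 made up 2.84% ± 0.181 of ENO1 and ENO2 in NC, 1.72% ± 0.266 in ORF, and 2.99% ± 0.13 in those labelled MT, and its highest ORF library was below all others. ALDOC was at 69.3% ± 1.7 of ALDOA and ALDOC as counted in NC, 56.7% ± 6.55 in ORF, and 73% ± 2.41 in those labelled MT. The gene count leaves out many ALDOA reads, so these shares do not show which aldolase is the main one. PFKFB4 was at 18.9% ± 1.2 of PFKFB3 and PFKFB4 in NC, 16.4% ± 2.07 in ORF, and 23.4% ± 4.07 in those labelled MT. LDHA, at 91% ± 0.681, 91.8% ± 1.46 and 92.1% ± 0.849 of both lactate dehydrogenase subunits, overlapped between all groups.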
